A study of Mus musculus with 6 samples.

Results

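The genes described here are 41 genes of DNA replication and S phase, taken by gene symbol from a table of 24421 symbols. They encode the proteins that mark and open replication origins, the helicase and polymerases of the replication fork, the enzymes that supply deoxynucleotides, and members of the E2F axis that is linked to their transcription. All 41 symbols were in the table, and all 41 passed the filter on low counts. RNA had been sequenced from C2C12 cells, a mouse myoblast line that withdraws from the cell cycle and fuses into myotubes when serum is lowered. The shGAA group (n = 3 libraries) carried a lentivirus with a hairpin RNA against Gaa, the gene of lysosomal acid alpha-glucosidase, and the shScrambled group (n = 3 libraries) a lentivirus with a hairpin of scrambled sequence. All cultures shared the cell line, puromycin selection, growth in 10% fetal bovine serum, differentiation in 2% horse serum with 4.5 g/l glucose and the title word Fed, which the labels do not explain. The labels leave out the number of hairpins and do not state that libraries of 1 group derive from separate infections or cultures, so the p-values speak of the spread among libraries, and that spread may be technical.

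A cell copies its DNA once per cycle. Before S phase, the origin recognition complex with Cdc6 and Cdt1 loads the ring-shaped MCM helicase onto DNA, a step called licensing, and geminin blocks a repeat of it. At the start of S phase Cdc45 and the GINS complex join the ring and activate it, and polymerases, primase, the sliding clamp PCNA and its loader RFC then build the new strands. Many of these genes are known targets of E2F transcription factors, which pocket proteins of the retinoblastoma family hold in check in cells that leave the cycle. Muscle differentiation is a textbook case of such an exit, so in a differentiated culture the level of these RNAs depends on the share of cells still cycling as well as on the RNA per cell, and in bulk RNA fewer cells of a type and less RNA per cell cannot be told apart.

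Promoter stretches of several of these genes carry the letters of the E2F site, and they are shown to set these genes beside the mitosis genes that later results are compared with. Promoters were taken from RefSeq on GRCm38.p6, as the 250 bases before and 50 bases after a listed start. The first promoter listed for each gene was used, and its start need not be the outermost start of the gene. Of the 41 genes, 33 had an entry. Both strands were searched for the E2F site as TTTCCCGC, TTTCGCGC, TTTGCCGC or TTTGGCGC, for the cell cycle homology region (CHR, a site known from promoters of mitosis genes) as TTTGAA or TTCGAA, and for CCAAT, the core of the NF-Y site. Over all listed promoters of the replication and mitosis genes together, 2 pairs of matches to different motifs overlapped. Each stretch below holds 60 bases upstream of the listed start, on the strand of the gene, with E2F letters of either strand in capitals. For Orc1, Cdc6 and Mcm7 the stretch lies inside the annotated span of the gene. In Mcm5 the capitals are a pair of overlapping matches, 1 on each strand.
Mcm5, chr8:75109334-75109393, plus strand: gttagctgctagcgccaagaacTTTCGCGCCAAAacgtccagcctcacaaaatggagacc
Mcm7, chr5:138172015-138172074, minus strand: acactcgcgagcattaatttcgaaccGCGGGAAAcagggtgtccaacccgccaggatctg
Mcm6, chr1:128359719-128359778, minus strand: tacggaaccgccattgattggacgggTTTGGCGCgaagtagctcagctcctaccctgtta
Orc1, chr4:108579394-108579453, plus strand: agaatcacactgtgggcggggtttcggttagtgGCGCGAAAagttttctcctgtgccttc
Cdc6, chr11:98907987-98908046, plus strand: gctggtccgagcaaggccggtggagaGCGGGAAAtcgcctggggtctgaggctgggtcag
A further pair of stretches belongs to mitosis genes, with CHR letters in capitals. Some of the promoters shown hold both motifs. Mcm7 has CHR letters that are left in small letters in its stretch, and Cdk1 has E2F letters outside its stretch.
Cdc20, chr4:118437344-118437403, minus strand: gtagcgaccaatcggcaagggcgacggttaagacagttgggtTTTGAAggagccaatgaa
Cdk1, chr10:69352913-69352972, minus strand: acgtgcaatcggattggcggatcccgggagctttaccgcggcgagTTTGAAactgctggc
E2F letters were found in 12 of 33 replication promoters (36.4%), against 1 of 29 promoters of mitosis genes (3.45%) and 2.32% of all 27025 promoters. CHR letters were found in 7 of the 33 replication promoters (21.2%), against 22 of the 29 mitosis promoters (75.9%) and 19.4% of all promoters. CCAAT was in 66.7% of replication promoters, 72.4% of mitosis promoters and 37.9% of all promoters. Among the 9016 promoters of tested genes, E2F letters were in 4.21%, CHR letters in 13.2% and CCAAT in 39.1%. A match is a string of letters in this window and not a measured binding site.

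Gaa itself had 469, 445 and 552 counts in shGAA 1 to 3, against 1033, 1158 and 1119 counts in shScrambled 1 to 3, a log2 fold change of -1.25 ± 0.07 (adjusted p = 1.09e-09) in the direction the labels give. The libraries held 9224038 to 10430270 counts in shGAA and 9475245 to 9918142 in shScrambled. The 41 genes took 0.228% to 0.243% of the counts in shGAA and 0.241% to 0.276% in shScrambled.

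The hairpin against Gaa went with lower RNA from 20 of the 41 replication genes and with higher RNA from none. The falls were small, with a median of -0.35 on the log2 scale among the 20 genes, or 78.6% of the shScrambled level left, and they ranged from -0.14 for Rrm1 to -0.70 for Gins1. Lower calls made up 19.7% of all 11801 tested genes and higher calls 18.5%. Calls in either direction made up 38.2%. Among tested genes of at least 10 CPM (the count scaled to library size), a level that 39 of the 41 genes reached, 21.6% were lower and 19.6% higher. With library size as the sole scaling, higher genes made up 60% of all calls, against 48.4% here, and 16 replication genes were lower. The median log2 fold change over all 41 genes was -0.19, against 0.01 over all tested genes, and 35 of the 41 lay below 0, as did 49.2% of all tested genes. A call is an adjusted p under 0.05 in edgeR's quasi-likelihood test, with adjustment over all tested genes. At an unadjusted p under 0.05, 22 of the 41 genes passed, and 0 of these lay above 0. The share of all tested genes at this looser threshold was not counted, but it is at least the 38.2% called after adjustment.

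The groups did not overlap for 19 of the 41 genes, in each case with the 3 shGAA libraries below the 3 shScrambled libraries, against 24.9% of all tested genes that were separated in this direction. In none of the 41 did all shGAA libraries lie above all shScrambled libraries, against 24.7% of all tested genes. Among the called genes 3, Mcm3, Mcm7 and Pole, had groups that overlapped, and 2 genes with separate groups, Gins2 and Rpa2, did not pass the test. The summed level of the 41 genes was 2336, 2243 and 2386 CPM in shGAA 1 to 3, against 2800, 2458 and 2792 CPM in shScrambled 1 to 3. The library shScrambled 2 lay nearest to the shGAA libraries. It was the lowest of its group for 30 of the 41 genes, with its median gene 0.17 lower on the log2 scale than the mean of shScrambled 1 and 3. Without shScrambled 2, 23 genes were lower, and without shScrambled 1, which differed most from the others over all genes, 18 were lower and 1, Rfc3, was higher (0.25 ± 0.10, adjusted p = 0.0415).

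**Figure D1:**
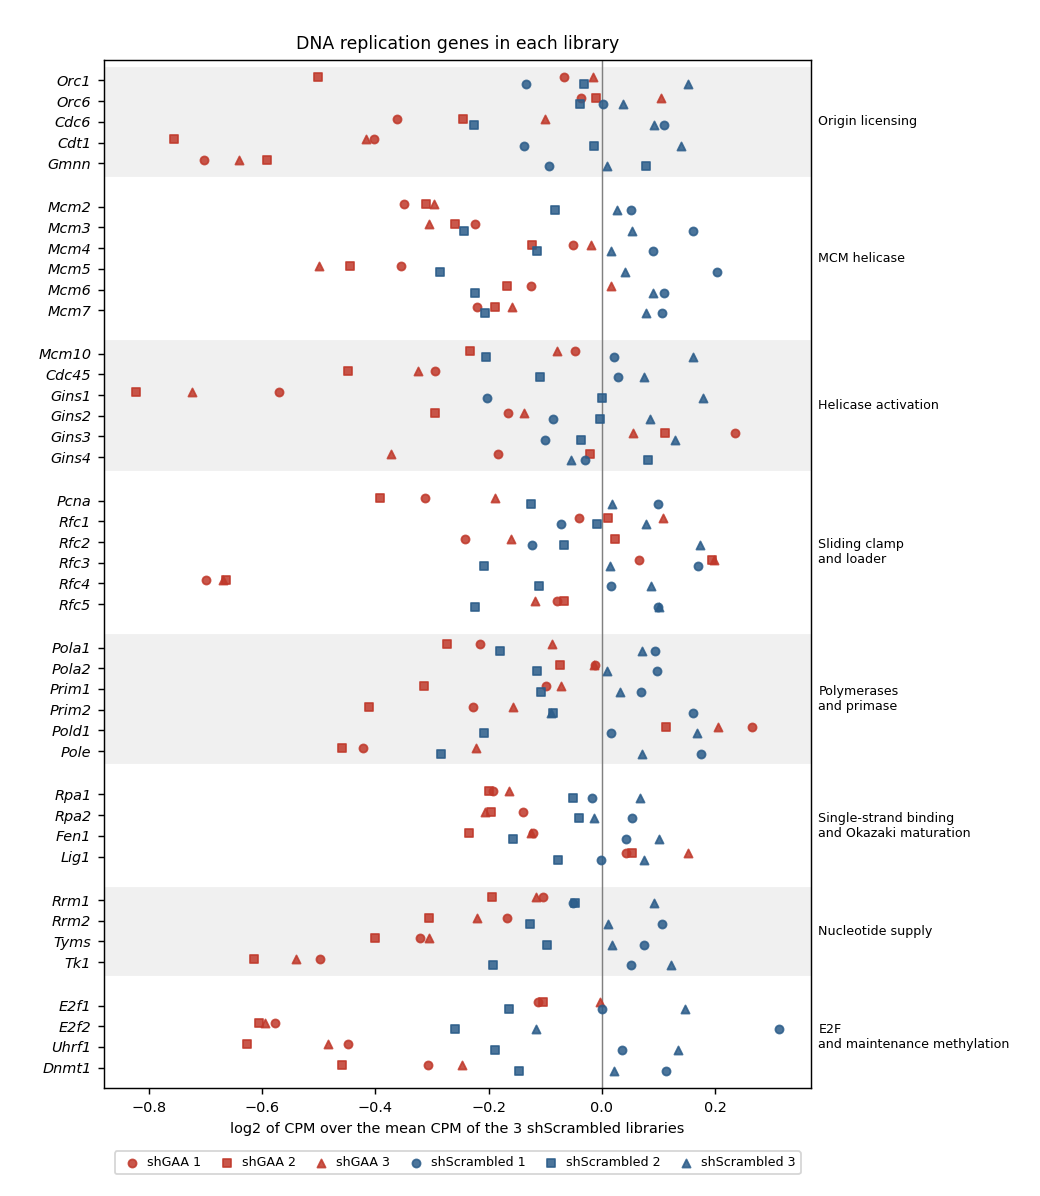
Level of each of the 41 genes in each of the 6 libraries, as log2 of its CPM over the mean CPM of the 3 shScrambled libraries (x axis, log2 units), with genes in rows grouped by role and 1 point per library. For 19 genes every shGAA point lies left of every shScrambled point, and the shScrambled 2 squares are the leftmost of their group for 30 genes.

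The plot of levels by library shows how narrow the gap was for most genes. Gmnn, Rfc4, Gins1 and E2f2 had a clear space between the highest shGAA point and the lowest control point. For Mcm4, Mcm6, Rfc1, Rfc5, Pola2 and Lig1 the points of both groups were mixed.

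Licensing genes divided between the loading factor and its inhibitor, which fell, and the remaining members, which did not pass. Gmnn, which encodes geminin, the inhibitor of Cdt1, had 12.3, 13.2 and 12.8 CPM in shGAA 1 to 3, against 18.7, 21.1 and 20.1 CPM in shScrambled 1 to 3. All shGAA libraries were below all controls, with a log2 fold change of -0.64 ± 0.11 (fitted value ± SE, 3 libraries a group, adjusted p = 0.00016). Gmnn lies on chromosome 13 at 24751845 to 24761937 (GRCm38, minus strand). Cdt1, which brings the MCM ring to the origin, had 20.02, 15.7 and 19.8 CPM in shGAA 1 to 3, against 24.0, 26.2 and 29.1 CPM in shScrambled 1 to 3. It changed by -0.51 ± 0.11 (adjusted p = 0.00165), with no overlap between the groups. The other 3 genes overlapped between the groups. Cdc6, the ATPase that works with Cdt1, was at -0.23 ± 0.12 (adjusted p = 0.145). Orc1, the largest subunit of the origin recognition complex, was at -0.17 ± 0.16 (adjusted p = 0.425) and was measured from only 56 to 89 counts per library. Orc6, the smallest subunit, averaged 46.0 ± 2.43 CPM in shGAA and 45.4 ± 1.20 CPM in shScrambled (SD, n = 3 each). The remaining origin recognition subunits, Orc2, Orc3, Orc4 and Orc5, did not pass either, with log2 fold changes between -0.12 and 0.08.

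The 6 subunits of the MCM ring all had fold changes below 0, but by unequal amounts. Mcm2 had 74.9, 76.9 and 77.7 CPM in shGAA 1 to 3, against 98.9, 90.1 and 97.2 CPM in shScrambled 1 to 3. The groups were apart, and the log2 fold change was -0.32 ± 0.06 (adjusted p = 0.000305). Mcm5 had 56.3, 52.9 and 50.9 CPM in shGAA 1 to 3, against 82.9, 59.1 and 74.1 CPM in shScrambled 1 to 3. Its change of -0.43 ± 0.11 (adjusted p = 0.00923) came with controls that were themselves spread, shScrambled 2 being the lowest. Without shGAA 3 the adjusted p of Mcm5 was 0.0556. Mcm3 (-0.26 ± 0.09, adjusted p = 0.0285) and Mcm7 (-0.19 ± 0.07, adjusted p = 0.0473) passed with overlapping groups, because shScrambled 2 was at the level of the shGAA libraries. Mcm3 lost its call in 5 of the 13 alternative settings, among them those without shGAA 1, shGAA 2, shGAA 3 or shScrambled 3. Mcm7 lost it in 10, and of the single libraries only shScrambled 2 could be left out without losing it. Mcm4 (-0.06 ± 0.06, adjusted p = 0.426) and Mcm6 (-0.09 ± 0.08, adjusted p = 0.44) did not pass. Mcm7 shares 23.3% of its 50-base stretches with other genes, mainly Gm5487, so its count is uncertain.

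Per length of the principal transcript, the 6 MCM RNAs were not equal in amount. Mcm6 was the most abundant, at 50.3 ± 3.41 CPM per kb in shGAA and 53.6 ± 6.67 CPM per kb in shScrambled. Mcm5 was the least abundant, at 15.8 ± 0.800 CPM per kb in shGAA and 21.3 ± 3.57 CPM per kb in shScrambled. Between them in shScrambled came Mcm7 at 36.8 ± 4.25, Mcm3 at 33.3 ± 4.67, Mcm4 at 31.5 ± 2.24 and Mcm2 at 28.3 ± 1.39 CPM per kb. In that order Mcm7 and Mcm3, and Mcm3 and Mcm4, differed by less than the SD of either Mcm7 or Mcm3. The 2 genes with the lowest level per length in shScrambled, Mcm5 and Mcm2, were also the 2 with the largest falls within the ring.

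**Figure D2:**
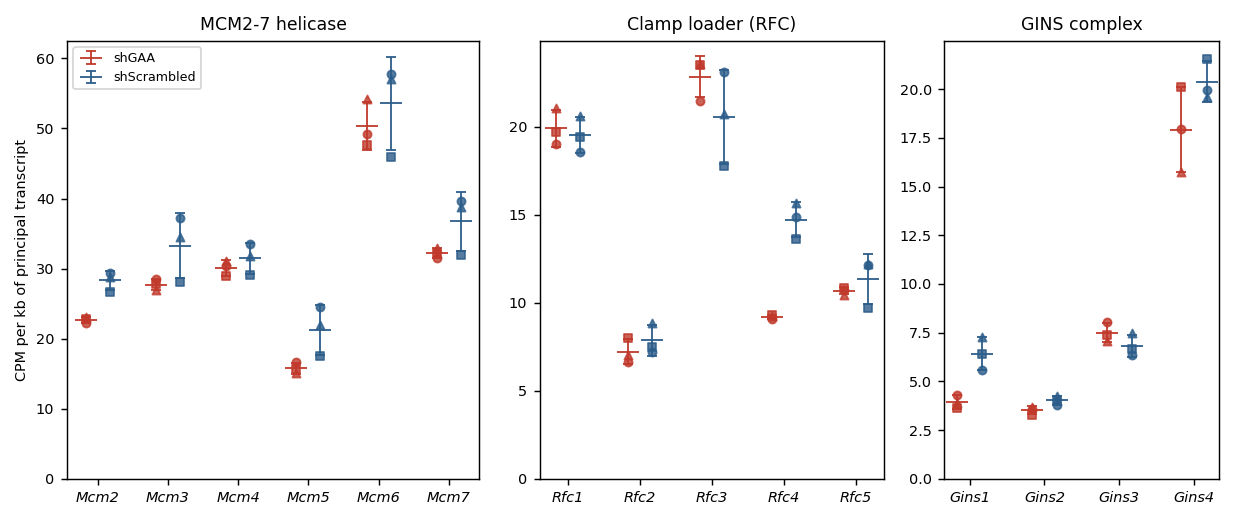
Level per length (CPM per kb of the principal transcript, linear y axis from 0, scaled separately in each panel) of the subunits of the MCM ring, the RFC clamp loader and the GINS complex. Points are libraries (circle 1, square 2, triangle 3), and horizontal marks with bars are the mean and SD of 3 libraries, shGAA left of shScrambled for each gene. Within each complex the shGAA level is clearly apart for some subunits (Mcm2, Rfc4, Gins1) and overlaps for others (Mcm4, Mcm6, Rfc1, Rfc5, Gins3).

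The plot of subunit levels shows the same unevenness in the factors that switch the helicase on. Cdc45, which joins the MCM ring to form the active helicase, had 25.03, 22.5 and 24.5 CPM in shGAA 1 to 3, against 31.3, 28.5 and 32.3 CPM in shScrambled 1 to 3. The groups did not overlap, and it changed by -0.35 ± 0.09 (adjusted p = 0.00473). Gins1, a subunit of the 4-part GINS ring, had the largest fall of the 41 genes, at -0.70 ± 0.18 (adjusted p = 0.00499). It also had the lowest CPM of the 41 genes, with 46, 37 and 45 counts in shGAA 1 to 3, against 59, 65 and 74 counts in shScrambled 1 to 3. Per length it lay above Orc1 and Gins2 in both groups. Gins1 lies on chromosome 2 at 150909556 to 150931280 (GRCm38, plus strand). Its partners did not pass. Gins2 was at -0.20 ± 0.11 (adjusted p = 0.182), Gins4 at -0.19 ± 0.10 (adjusted p = 0.146) and Gins3 at 0.14 ± 0.11 (adjusted p = 0.341). Gins2 overlaps Gse1 on the opposite strand over 67.3% of its exonic bases, so without strand in counting its reads cannot be assigned with certainty. Mcm10, a scaffold that binds the activated helicase, was at -0.12 ± 0.11 (adjusted p = 0.439).

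In the clamp and its loader, Pcna and Rfc4 fell and the other loader subunits did not pass. Rfc4, a small subunit of the loader, had 11.1, 11.4 and 11.4 CPM in shGAA 1 to 3, against 18.3, 16.8 and 19.2 CPM in shScrambled 1 to 3. The 3 shGAA values were close together and below all controls, and the log2 fold change was -0.68 ± 0.11 (adjusted p = 0.00015). Pcna, the sliding clamp that holds polymerases on DNA, had 130, 123 and 141 CPM in shGAA 1 to 3, against 173, 148 and 163 CPM in shScrambled 1 to 3. It changed by -0.29 ± 0.06 (adjusted p = 0.00188), and it shares 19.1% of its 50-base stretches with other genes, mainly the pseudogene Pcna-ps2. Rfc1 (0.03 ± 0.06), the large subunit, and Rfc2 (-0.12 ± 0.09), Rfc3 (0.15 ± 0.10) and Rfc5 (-0.09 ± 0.09) overlapped between groups, with adjusted p values from 0.235 to 0.740. Rfc4, on chromosome 16 at 23113948 to 23127730 (GRCm38, minus strand), overlaps Eif4a2 on the opposite strand over 12.7% of its exonic bases. The fold change of Rfc4 was not tested against those of the other subunits.

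Among polymerases and primase, the catalytic subunit of the leading strand polymerase and 1 primase subunit fell. Pole, the catalytic subunit of polymerase epsilon, had 35.5, 34.6 and 40.7 CPM in shGAA 1 to 3, against 53.6, 39.0 and 49.9 CPM in shScrambled 1 to 3. The groups overlapped, since shGAA 3 was above shScrambled 2, and the change was -0.36 ± 0.11 (adjusted p = 0.0202). Prim2, the large primase subunit, had 28.7, 25.3 and 30.2 CPM in shGAA 1 to 3, against 37.6, 31.7 and 31.6 CPM in shScrambled 1 to 3. It passed at -0.26 ± 0.09 (adjusted p = 0.0387), and it lost the call without shGAA 1, shGAA 2 or shScrambled 1 (adjusted p = 0.077, 0.179 and 0.151). Pole lost its call without shGAA 1, shGAA 2 or shScrambled 3 (adjusted p = 0.0808, 0.0883 and 0.07). The calls were made in 10 of 13 alternative settings for Pole and in 8 for Prim2. Pola1, the catalytic subunit of the polymerase that starts each new strand, was at -0.19 ± 0.08 (adjusted p = 0.0796) and its partners Pola2 and Prim1 at -0.03 ± 0.08 and -0.16 ± 0.09. Pold1, the catalytic subunit of polymerase delta, had the most positive fold change of the 41 genes, with 24.3, 21.9 and 23.3 CPM in shGAA 1 to 3, against 20.5, 17.5 and 22.7 CPM in shScrambled 1 to 3. The groups overlapped, and the value of 0.20 ± 0.11 did not pass (adjusted p = 0.160).

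Of the 4 genes of single-strand binding and of lagging strand maturation, 1 fell. Rpa1, the large subunit of the protein that covers single-stranded DNA, had 148, 147 and 151 CPM in shGAA 1 to 3, against 167, 163 and 177 CPM in shScrambled 1 to 3. The groups did not overlap, and the fall of 0.19 ± 0.05 on the log2 scale was small (adjusted p = 0.0085), and without shScrambled 3 its adjusted p was 0.055. Rpa2 had 32.2, 30.9 and 30.7 CPM in shGAA 1 to 3, against 36.8, 34.5 and 35.1 CPM in shScrambled 1 to 3. These groups were also apart, but the test was not passed (-0.18 ± 0.08, adjusted p = 0.0706). Lig1, the ligase that seals Okazaki fragments, was at 0.08 ± 0.07 (adjusted p = 0.359), and Fen1, the nuclease that trims them, at -0.16 ± 0.08 (adjusted p = 0.113). Fen1 overlaps other genes on the opposite strand over 84.2% of its exonic bases, which leaves its counts uncertain.

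All 4 genes of deoxynucleotide supply fell, and their groups were separate. Tk1, the thymidine kinase of the salvage pathway, had 32.5, 30.0 and 31.6 CPM in shGAA 1 to 3, against 47.6, 40.2 and 49.95 CPM in shScrambled 1 to 3. Tk1 lies on chromosome 11 at 117815519 to 117826087 (GRCm38, minus strand). The change was -0.55 ± 0.09, with the smallest adjusted p of the 41 genes (8.7e-05). Tyms, which makes thymidylate from scratch, had 34.9, 33.1 and 35.3 CPM in shGAA 1 to 3, against 45.9, 40.8 and 44.2 CPM in shScrambled 1 to 3. It changed by -0.34 ± 0.07 (adjusted p = 0.00175). The subunits of ribonucleotide reductase, which makes deoxynucleotides from ribonucleotides, fell less. Rrm2, the subunit whose level limits the enzyme in S phase, averaged 246 ± 11.9 CPM in shGAA and 289 ± 23.4 CPM in shScrambled (-0.23 ± 0.06, adjusted p = 0.00515). Rrm1, the large subunit, averaged 209 ± 6.94 CPM in shGAA and 230 ± 13.2 CPM in shScrambled (-0.14 ± 0.05, adjusted p = 0.0467), a call made in 4 of 13 alternative settings and lost without shGAA 1, shGAA 2, shGAA 3 or shScrambled 3. Per length, Rrm2 was the most abundant of the 41 RNAs in both groups, at 112 ± 5.42 CPM per kb in shGAA and 132 ± 10.7 CPM per kb in shScrambled.

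In the E2F axis, E2f2 fell and E2f1 did not pass. E2f2, an activating E2F, had 23.5, 23.1 and 23.2 CPM in shGAA 1 to 3, against 43.6, 29.3 and 32.3 CPM in shScrambled 1 to 3. The shGAA values were nearly equal, while shScrambled 1 stood well above its group. With all libraries the change was -0.59 ± 0.13 (adjusted p = 0.00266), and without shScrambled 1 it was -0.41 (adjusted p = 0.000664). E2f1 averaged 34.7 ± 1.48 CPM in shGAA and 36.5 ± 3.90 CPM in shScrambled (-0.07 ± 0.09, adjusted p = 0.541). Uhrf1 and Dnmt1, which together copy DNA methylation onto the new strand behind the fork, both fell. Uhrf1 had 74.8, 66.2 and 73.0 CPM in shGAA 1 to 3, against 105, 89.6 and 112 CPM in shScrambled 1 to 3 (-0.52 ± 0.08, adjusted p = 0.000118). Dnmt1 had 110, 98.9 and 114 CPM in shGAA 1 to 3, against 147, 123 and 138 CPM in shScrambled 1 to 3 (-0.33 ± 0.07, adjusted p = 0.00145). All shGAA libraries were below all controls for both. Uhrf1 shares 15.4% of its 50-base stretches with other genes.

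**Figure D3:**
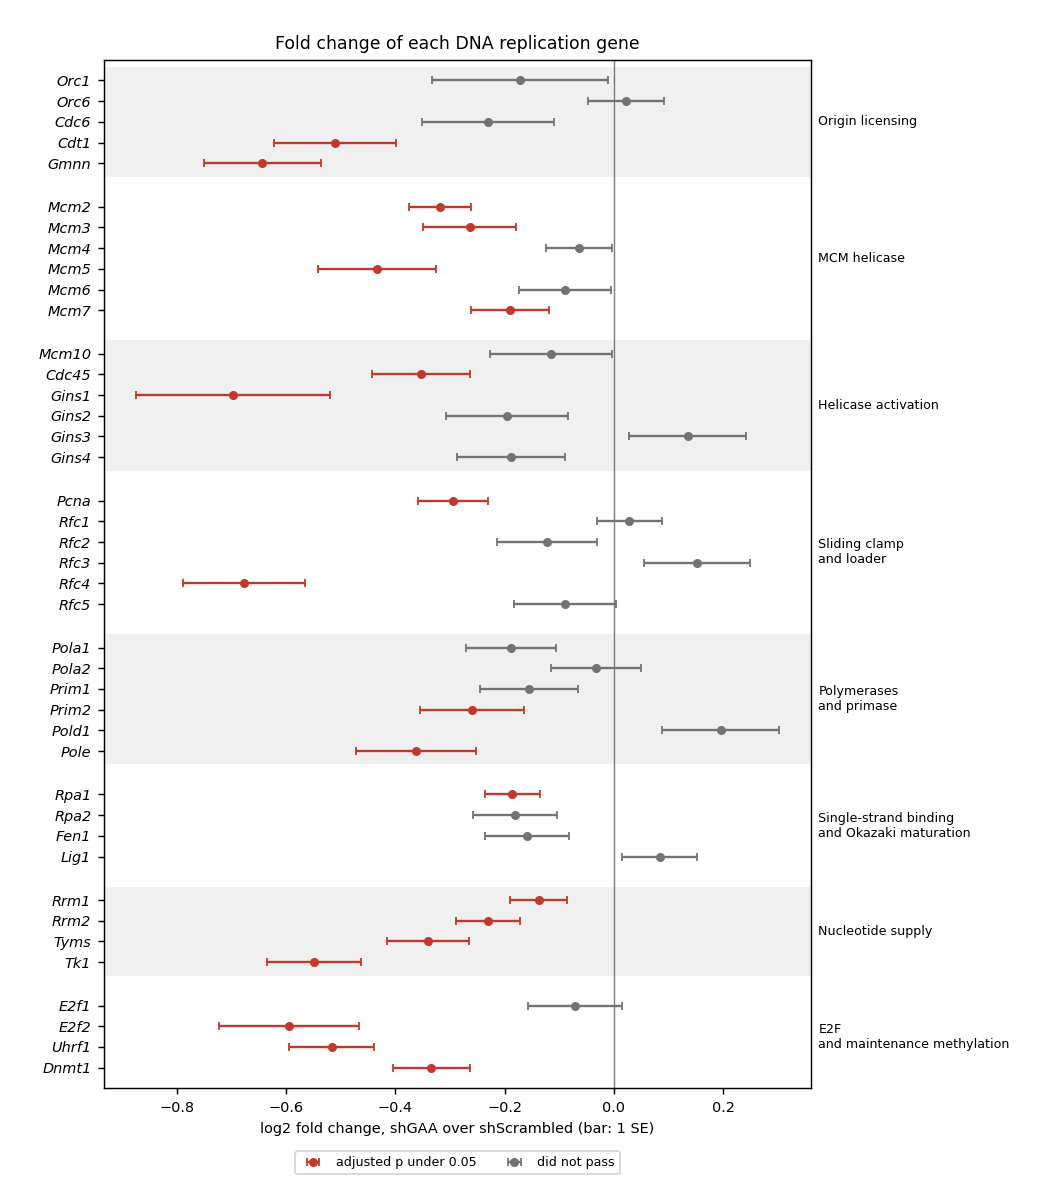
Log2 fold change of shGAA over shScrambled for each of the 41 genes (x axis, log2 units), with bars of 1 SE and n = 3 libraries per group, genes in rows grouped by role. The 20 genes with an adjusted p under 0.05 all lie left of 0, and the 6 genes right of 0 (Orc6, Gins3, Rfc1, Rfc3, Pold1 and Lig1) did not pass.

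The plot of fold changes shows nucleotide supply as the only role in which every gene fell, 4 of 4, although Rrm1 was close to the threshold and all 4 fell in only 4 of the 13 alternative settings, with 3 of 4 in the rest. The counts of falling genes were 3 of 4 in the E2F and methylation group, 4 of 6 in the MCM ring, 2 of 5 in licensing, 2 of 6 each in helicase activation, in clamp and loader and in polymerases and primase, and 1 of 4 in single-strand binding and maturation. These counts are read against the background of 19.7%, and roles were not tested against each other. Of the 20 calls, 13 were made in all 13 alternative settings, those of Cdt1, Gmnn, Mcm2, Cdc45, Gins1, Rfc4, Pcna, Tk1, Tyms, Rrm2, E2f2, Uhrf1 and Dnmt1. E2F letters were present in the promoters of 5 of 16 falling genes with an entry (31.2%) and of 7 of 17 genes that did not pass (41.2%), and with any listed promoter of a gene the counts were 7 of 16 (43.8%) and 8 of 17 (47.1%). Mcm5 and Mcm7, whose E2F letters are printed above, fell, while Mcm6, Orc1 and Cdc6 did not pass.

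Further genes of replication, from a list of 40, had calls in 1 direction. Of these, 12 fell (30%), none rose and 28 did not pass, against 19.7% lower and 18.5% higher of all tested genes. Their median was -0.11, and their difference from the 41 genes was not tested. Nasp, a histone chaperone, fell by 0.42 ± 0.08 on the log2 scale (adjusted p = 0.000362) and Top2a, the topoisomerase that untangles copied chromosomes, by 0.33 ± 0.06 (adjusted p = 0.000445). Pole4, an accessory subunit of polymerase epsilon, fell by 0.35 ± 0.07 (adjusted p = 0.000904), and Dbf4, the activator of the kinase that fires origins, by 0.40 ± 0.10 (adjusted p = 0.0052). There were 7 falls, not 12, when library size alone set the scaling, 5 in DESeq2 and 6 without shGAA 1. Among 15 more genes of nucleotide supply, 4 fell (26.7%) and 1 rose (6.67%), against 19.7% and 18.5% of all tested genes. The falls were those of Nme1, a nucleoside diphosphate kinase (-0.43 ± 0.05, adjusted p = 9.66e-06), Ctps, Dtymk and Umps, and only 2 genes of this list fell without shGAA 2, shGAA 3 or shScrambled 3. The rise was that of Samhd1, an enzyme that breaks down deoxynucleotides. It averaged 73.3 ± 4.83 CPM in shGAA and 62.5 ± 2.61 CPM in shScrambled (0.23 ± 0.06, adjusted p = 0.00928), a call lost without shGAA 3.

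Among 16 other E2F family and pocket genes 5 fell (31.2%), 2 rose (12.5%) and 9 did not pass, against 19.7% lower and 18.5% higher of all tested genes, with a median of -0.10. Rbl1, which encodes the pocket protein p107 and is itself a known E2F target, averaged 34.3 ± 2.62 CPM in shGAA and 46.8 ± 6.81 CPM in shScrambled (-0.45 ± 0.10, adjusted p = 0.0026). Rbl2, which encodes p130, the pocket protein typical of resting cells, averaged 90.5 ± 2.49 CPM in shGAA and 75.5 ± 8.06 CPM in shScrambled (0.26 ± 0.07, adjusted p = 0.00625). Tfdp2, a dimer partner of E2F proteins, rose by 0.43 ± 0.07 (adjusted p = 0.000246), while its relative Tfdp1 fell by 0.18 ± 0.06 (adjusted p = 0.0238). E2f4, E2f6 and E2f8, which mainly repress, fell by 0.34 ± 0.07, 0.33 ± 0.07 and 0.26 ± 0.09 on the log2 scale. Rb1 itself was at -0.04 ± 0.07 (adjusted p = 0.669). Of this list 3 genes fell when library size alone set the scaling, and 3 without shGAA 1, shGAA 2 or shScrambled 1.

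Among 17 tested cyclins, kinases and inhibitors of the step from G1 to S phase, 6 fell (35.3%), 4 rose (23.5%) and 7 did not pass. Of all tested genes, 19.7% were lower and 18.5% higher. Cdkn1a, which encodes the kinase inhibitor p21 that is known to rise at muscle cell cycle exit, had 746, 751 and 688 CPM in shGAA 1 to 3, against 563, 572 and 569 CPM in shScrambled 1 to 3. All shGAA libraries were above all controls (0.36 ± 0.05, adjusted p = 9.85e-06). Ccna2, the cyclin of S phase and G2, fell by 0.71 ± 0.07 (adjusted p = 2.42e-06), Ccnd1, a G1 cyclin, by 0.43 ± 0.06 (adjusted p = 0.00011), and the inhibitor genes Cdkn2c and Cdkn2d by 0.43 ± 0.08 and 0.46 ± 0.10. Cdk4, a G1 kinase, rose by 0.20 ± 0.05 (adjusted p = 0.00415), Ccnd2 by 0.18 ± 0.05 (adjusted p = 0.0107) and Skp2, part of the ligase that removes kinase inhibitors, by 0.38 ± 0.11 (adjusted p = 0.012). The cyclins that start S phase, Ccne1 and Ccne2, were at -0.05 ± 0.11 and -0.19 ± 0.11, and their partner Cdk2 at -0.01 ± 0.08, none of which passed.

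In the mitosis list, every gene fell. All 35 listed mitosis genes were lower in shGAA, with a median of -0.58, against 20 of 41 and -0.19 for replication. Of all tested genes, 19.7% were lower. Leaving out shGAA 1 alone or shGAA 2 alone left 33 of the 35 mitosis genes called lower. A fall of at least 0.5 on the log2 scale was found for 24 of the 35 mitosis genes and 7 of the 41 replication genes, against 7.83% of all tested genes. Cdc20, whose CHR letters are printed above, had 76.1, 76.6 and 78.4 CPM in shGAA 1 to 3, against 143, 142 and 132 CPM in shScrambled 1 to 3 (-0.85 ± 0.05, adjusted p = 5.71e-09). Every shGAA library was far below every control. Kif20a and Prc1, which act in cytokinesis, changed by -0.93 ± 0.05 (adjusted p = 1.79e-09) and -0.82 ± 0.06 (adjusted p = 1.35e-08), and Ube2c, a conjugating enzyme of mitotic exit, by -0.81 ± 0.06 (adjusted p = 3.68e-08). Cdk1, the kinase that drives mitosis, changed by -0.58 ± 0.06 (adjusted p = 6.07e-07). The summed CPM of replication genes over that of mitosis genes was 1.00, 0.957 and 0.914 in shGAA 1 to 3, against 0.742, 0.679 and 0.774 in shScrambled 1 to 3. The ratio was higher in every shGAA library than in any control. No p-value is given for these sums or for the difference between the lists.

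**Figure D4:**
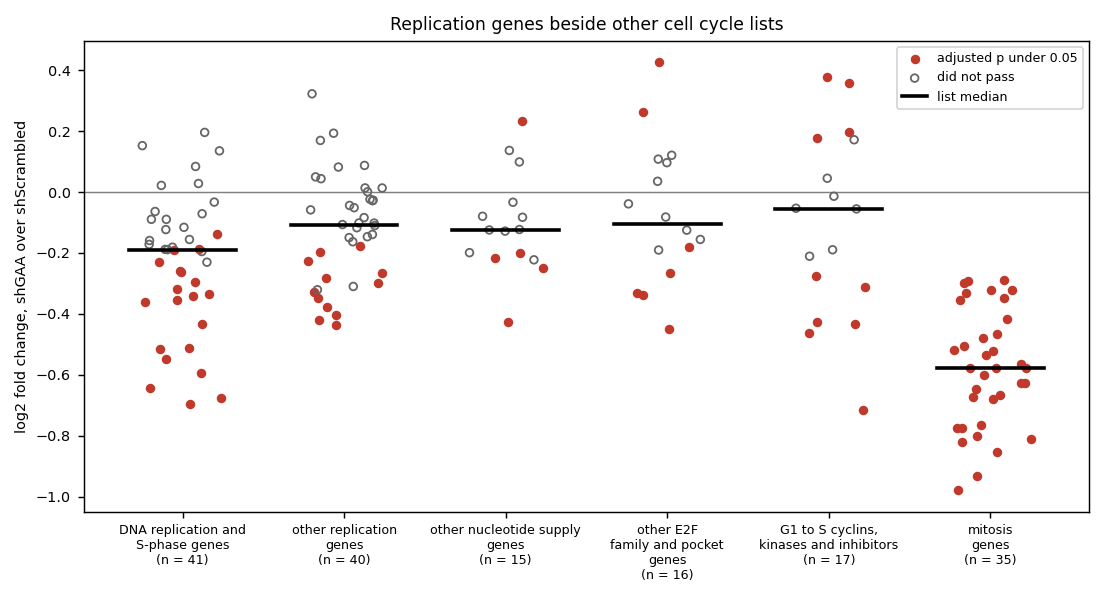
Log2 fold change of shGAA over shScrambled (y axis, log2 units) of each tested gene of the 41 replication genes and of 5 other lists, with 1 point per gene and a bar at the list median. Medians lie at -0.19 for the replication genes and -0.58 for the mitosis genes, where every point is below 0 and filled.

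**Figure D5:**
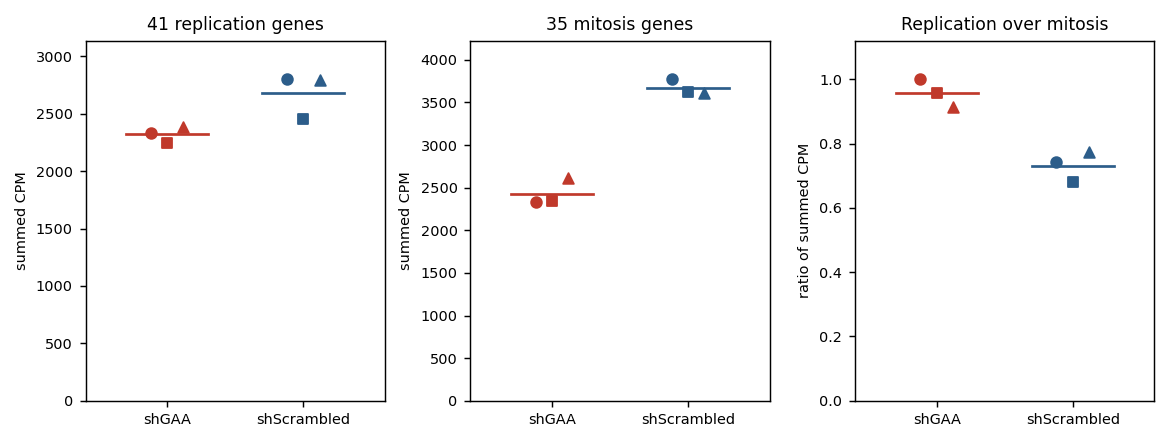
Summed CPM of the 41 replication genes, summed CPM of the 35 mitosis genes and the ratio of both, with 1 point per library (circle 1, square 2, triangle 3), shGAA left of shScrambled, bars at group means and linear axes from 0. The replication sum was 2243 to 2386 CPM in shGAA and 2458 to 2800 CPM in shScrambled, and the mitosis sum 2336 to 2612 CPM in shGAA and 3609 to 3772 CPM in shScrambled.

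Most muscle markers were lower alongside these genes, while markers of undifferentiated myoblasts had calls in both directions. Of 20 muscle markers 16 were lower in shGAA (80%) and none higher, against 19.7% lower and 18.5% higher of all tested genes. When 1 library was left out, 13 were lower without shGAA 1 or shGAA 3 and 18 without shScrambled 2. Their summed level was 3185 to 3426 CPM in shGAA and 4421 to 4816 CPM in shScrambled. Actn3, a sarcomere gene, fell by 1.14 ± 0.05 (adjusted p = 1.17e-10), Chrna1, an acetylcholine receptor subunit, by 0.60 ± 0.05, Des, which encodes desmin, by 0.30 ± 0.04 and Mymx, needed for fusion, by 1.05 ± 0.16 on the log2 scale. Myog, the regulator of terminal differentiation, averaged 37.3 ± 1.19 CPM in shGAA and 50.2 ± 7.59 CPM in shScrambled (-0.43 ± 0.09, adjusted p = 0.00208). Cultures of both groups held muscle RNA alongside replication RNA. Of 9 tested markers of undifferentiated myoblasts, 4 (Id3, Heyl, Hey1 and Myf5) were higher (44.4%) and 2 (Sdc4 and Notch1) lower (22.2%) in shGAA, with a list median of 0.22. The share of lower calls was near that of all tested genes. Pax7, with 3 to 14 counts per library, and Pax3, with 0 to 1, did not pass the filter on low counts. The list summed to 596 to 617 CPM in shGAA and 687 to 770 CPM in shScrambled, but without Sdc4 the direction turned, with 421 to 444 CPM in shGAA and 340 to 365 CPM in shScrambled. Markers of fibroblasts and adipocytes summed to 164 to 172 CPM in shGAA and 210 to 224 CPM in shScrambled, most of it from Cd34, the only one of 3 tested genes to pass, which averaged 143 ± 3.74 CPM in shGAA and 196 ± 12.5 CPM in shScrambled. Thy1, Plin1, Cfd and Lep were at 0 counts. Markers of leukocytes and endothelium summed to 2.56 to 2.66 CPM in shGAA and 3.52 to 5.15 CPM in shScrambled, with Cd3e, Itgam and Tie1 at 0 counts. Of the 2 tested genes of this list 1, Cdh5, was lower (50%), against 19.7% of all tested genes. It changed by -1.35 ± 0.46 (adjusted p = 0.028), with overlapping groups and only 4 to 24 counts per library. The part of these marker shifts in the replication result was not tested.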

How the data were processed

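Raw read counts for each gene symbol in each library stand in 1 table that the authors deposited. Per the submitters' processing notes, the build was mm10 and HISAT2 2.1.0, Subread, FastQC and edgeR were used. The annotation, the treatment of multi-mapped reads and the use of strand are not stated in these sources.

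Genes were kept by filterByExpr and libraries scaled by TMM, which also sets the library size in every CPM value. Groups were compared in edgeR 4.0.16 (R 4.3.3) by the robust quasi-likelihood F-test with a term for group alone. P-values were adjusted over the 11801 tested genes by Benjamini-Hochberg, with calls at an adjusted p under 0.05. An SE is the fold change over the root of its F value. The code was tested on simulated counts. The members and lists were chosen with earlier results of these data known, so lists are described by counts and medians with no set test. All 41 genes were named, with values in every library at least for the 2 of each role with the smallest adjusted p, as were up to 4 called genes per direction of each other list, Gaa, Cdkn1a and genes at 0 counts. Other genes named (Rb1, E2f8, Myog, Orc2 to Orc5, Ccne1, Ccne2, Cdk2 and Cdk1) and the library values of E2f2 and Pold1 were chosen after their values were seen, as were the marker sum without Sdc4 and the count over any listed promoter. Alternatives were 13 settings, with DESeq2 1.42.0 and limma 3.58.1 among them. Mymk and Mymx were matched by older symbols. Transcript length is that of the principal transcript in GENCODE M21 (GRCm38). Shared stretches are 50-base stretches also found in transcripts of other genes there, on either strand.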

Additional observations from a re-analysis of the deposited data

How the results depend on the processing

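The count of 20 falling replication genes stayed between 15 and 23 over the 13 alternatives. It was 16 with scaling by library size alone, 17 in DESeq2 and 18 in limma-voom, and leaving out 1 library gave 15 to 23. Higher genes numbered 0 throughout, except for 1 without shScrambled 1, so that leaving out 1 library gave 0 to 1. The median fold change ran from -0.14 to -0.23. Scaling by library size alone moved the median of all tested genes to 0.05. Genes near 0 changed sign without a call when 1 library was left out, with ranges of -0.023 (without shGAA 3) to 0.0495 for Orc6, -0.0143 (without shGAA 3) to 0.068 for Rfc1, which was also below 0 without shScrambled 1, -0.087 to 0.0192 (without shScrambled 1) for Pola2 and -0.1458 to 0.0072 (without shScrambled 3) for E2f1. Pola2 was also at 0.0141 under library size scaling. Mcm6, Pola1 and Fen1 gained a call without shScrambled 2.

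Other counts moved more. Under library size scaling the other replication genes had 7 falls and 1 rise, the other E2F family genes 3 falls and the muscle markers 1 rise. In DESeq2 the other replication genes had 5 falls and the leukocyte and endothelial markers 0. With no filter on low counts the muscle markers and the fibroblast and adipocyte markers each had 1 rise. Leaving out 1 library gave 6 to 11 falls of other replication genes, 2 to 6 falls and 0 to 2 rises of other nucleotide supply genes, 3 to 5 falls of other E2F family genes, 0 to 1 rises of muscle markers, 0 to 1 rises of fibroblast and adipocyte markers and 0 to 1 falls of leukocyte and endothelial markers. The causes were not tested.

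Samples of equal replicate number did not deviate together, with correlations of -0.04, 0.06 and -0.02 for the numbers 1, 2 and 3. With the replicate number as a block, 18 replication genes were lower and 0 higher, Mcm7 and Rrm1 losing their calls. Depth limits the rarest genes, with an SE of 0.18 for Gins1 and 0.16 for Orc1.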
